A study of Mus musculus with 11 samples.

Results

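Histone genes encode the proteins around which DNA is wound in the nucleus. The annotated probes of the arrays were searched for gene symbols that begin with H1f, H2a, H2b, H3c, H3f, H4c or H4f, with the MHC genes, whose symbols carry a hyphen, left out. This gave 79 histone genes with 114 probes, of 19057 genes with 34885 probes that carry a single symbol. By symbol, 57 genes (87 probes) were placed in the replication-dependent class, 9 genes (13 probes) in the replacement class and 13 genes (14 probes) in the germline class. The choice used symbols only, but the family was taken up with earlier genotype results of these data in view, H4c11 among them, so the genotype values below are a description. The macroH2A genes do not match the symbols, H1f0 has no named probe, and H2ap and H2bfm stand in the replacement class only because no other class took them.

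The samples were mammary tumours of 12-week-old female mice, one tumour to an array. The 5 PyMT/SIRT6 tumours came from mice that carry the PyMT transgene and the Sirt6BAC allele, a bacterial artificial chromosome that adds Sirt6. The 6 PyMT tumours came from mice with the PyMT transgene alone, so the polyoma middle T oncogene, which drives the tumours, is shared by both genotypes. Extra Sirt6 is not stated to be limited to tumour cells, whole tumours were used, and the labels do not say whether each tumour came from a different mouse, so the p-values measure only the spread between these samples. In such bulk samples, fewer cells of a type and less RNA per cell cannot be told apart.

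Replication-dependent histone genes are expressed in S phase, when the cell needs new nucleosomes for the copied DNA. They lie in clusters, have no introns, and their mRNAs normally end in a stem-loop bound by Slbp in place of a poly(A) tail. Replacement genes such as H3f3a, H3f3b and H2az1 are expressed through the cell cycle, have introns in most cases and give polyadenylated mRNAs. Their products are placed in chromatin outside replication. SIRT6 is a nuclear deacetylase whose known substrates include acetylated lysines of histone H3. The labelling kit belongs to a type that primes on poly(A), so the probes may read only the polyadenylated share of replication-dependent transcripts, and because these genes are near-identical copies, a probe may also take up transcripts of its neighbours. The level given to a single replication-dependent gene is therefore uncertain.

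The promoters were compared for short motifs known from histone genes. RefSeq windows (GRCm38.p6) from 250 bases before to 50 bases after the gene start were matched by symbol for 72 of the 79 genes and searched on both strands for the TATA box TATAAA, the CCAAT box CCAAT, the octamer ATTTGCAT and the H4 element GGTCCG. The H4 element letters occurred in 11 of 12 windows of H4 genes (91.7%), against 8.25% of all 32851 windows in the table. The octamer occurred in 50% of H2B windows and 37.5% of H2A windows, against 1.74% of all windows. CCAAT stood in every window of replication-dependent H1, H2A, H2B and H3 genes but in 25% of H4 windows, against 37.4% of all windows. Over the whole class, CCAAT occurred in 82.7% of replication-dependent windows and 87.5% of the 8 replacement windows, and the H4 element in 23.1% of replication-dependent windows and 25% of replacement windows. TATAAA occurred in 57.7% of replication-dependent windows and 12.5% of replacement windows, against 13.6% of all windows. These matches describe the letters and do not show that a factor binds there.

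The windows of the 4 H4 genes with the largest genotype differences, H4c8 (chr13:23530794-23531093, plus strand), H4c11 (chr13:21734784-21735083, plus strand), H4c1 (chr13:23761200-23761499, minus strand) and H4c12 (chr13:21750504-21750803, minus strand), are printed with an H2B gene, H2bc7 (chr13:23574158-23574457, minus strand), and a replacement gene, H2az1 (chr3:137864237-137864536, plus strand), for contrast. Capitals mark matches to the motifs spelled out above, on either strand, so CCAAT on the minus strand reads ATTGG and TATAAA on the minus strand reads TTTATA. H4c8, H4c11 and H4c12 carry GGTCCG, followed in H4c11 and H4c12 by TATAAA. H4c1 is the H4 window without GGTCCG and holds a CCAAT box on the minus strand and a TATAAA, while H2bc7 and H2az1 carry repeated CCAAT boxes.
H4c8: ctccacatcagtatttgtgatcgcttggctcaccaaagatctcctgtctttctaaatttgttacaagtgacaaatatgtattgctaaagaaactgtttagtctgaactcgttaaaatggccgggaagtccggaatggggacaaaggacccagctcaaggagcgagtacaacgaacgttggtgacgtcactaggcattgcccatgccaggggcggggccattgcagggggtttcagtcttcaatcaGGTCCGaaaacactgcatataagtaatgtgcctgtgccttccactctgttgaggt
H4c11: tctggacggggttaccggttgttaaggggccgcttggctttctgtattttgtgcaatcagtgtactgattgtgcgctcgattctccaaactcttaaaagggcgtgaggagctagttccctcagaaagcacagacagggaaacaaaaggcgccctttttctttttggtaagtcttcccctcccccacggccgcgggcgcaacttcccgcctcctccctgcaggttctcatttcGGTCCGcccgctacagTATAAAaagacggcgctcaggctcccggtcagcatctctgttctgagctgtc
H4c1: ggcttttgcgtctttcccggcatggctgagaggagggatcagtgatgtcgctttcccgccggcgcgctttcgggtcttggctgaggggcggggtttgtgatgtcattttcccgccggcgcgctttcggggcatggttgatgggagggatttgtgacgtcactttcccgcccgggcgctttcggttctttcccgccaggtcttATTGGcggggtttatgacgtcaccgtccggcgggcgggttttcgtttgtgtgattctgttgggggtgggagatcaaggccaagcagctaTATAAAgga
H4c12: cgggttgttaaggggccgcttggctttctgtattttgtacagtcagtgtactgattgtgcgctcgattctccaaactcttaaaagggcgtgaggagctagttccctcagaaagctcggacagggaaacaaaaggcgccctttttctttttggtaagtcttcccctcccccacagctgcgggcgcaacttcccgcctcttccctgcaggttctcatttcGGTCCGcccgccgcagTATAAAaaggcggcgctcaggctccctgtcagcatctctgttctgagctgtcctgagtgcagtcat
H2bc7: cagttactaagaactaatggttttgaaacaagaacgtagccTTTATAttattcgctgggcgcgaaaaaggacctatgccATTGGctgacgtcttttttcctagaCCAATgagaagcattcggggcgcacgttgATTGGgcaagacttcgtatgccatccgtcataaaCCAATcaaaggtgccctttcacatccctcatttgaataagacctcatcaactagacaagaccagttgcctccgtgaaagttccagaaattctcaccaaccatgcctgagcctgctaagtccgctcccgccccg
H2az1: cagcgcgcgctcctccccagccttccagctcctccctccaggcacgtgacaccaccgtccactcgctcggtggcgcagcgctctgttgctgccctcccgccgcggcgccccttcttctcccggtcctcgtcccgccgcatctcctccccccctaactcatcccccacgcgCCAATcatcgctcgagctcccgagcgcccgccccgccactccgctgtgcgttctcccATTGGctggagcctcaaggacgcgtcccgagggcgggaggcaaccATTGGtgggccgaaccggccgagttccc

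The deposited values were linear probe intensities that already shared their distribution across arrays, with medians between 157.50 and 157.57. Arrays correlated with each other at 0.945 to 0.991 over the upper 50% of probes by mean level. The intensities were taken to log2 without further scaling, so a difference of 1 is a doubling of intensity. Both Sirt6 probes and Tle6 were the 3 of 45281 probes (0.00663%) that passed limma's test of PyMT/SIRT6 against PyMT at an adjusted p of 0.05. The luminal markers Krt8, Krt18, Krt19 and Cdh1 were well detected, with a mean of 10.46 to 11.02 in PyMT/SIRT6 tumours and 10.31 to 11.34 in PyMT tumours, and the Epcam probe was below the detection limit used here. All 8 skeletal muscle genes of the marker list were detected, and PyMT/SIRT6 replicates 1, 4 and 5, along with PyMT replicate 5, had a mean level above 9 for them. It ranged from 7.25 to 12.29 in PyMT/SIRT6 tumours and from 7.29 to 12.34 in PyMT tumours.

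Histone genes differed widely in whether their probes could measure them. The brightest probe was in the upper 50% of all probes by mean level, a limit of 7.29 on the log2 scale, for 50 of 57 replication-dependent, 7 of 9 replacement and 3 of 13 germline genes. The core H2A genes H2ac10, H2ac24, H2ac20, H2ac13 and H2ac7 lay near the top of the array scale, between 13.96 and 14.70 in every tumour. Linker histone genes were mostly dim, apart from H1f2, which ranged from 12.14 to 12.72 in PyMT/SIRT6 tumours and from 12.14 to 12.45 in PyMT tumours. Of the 44 replication-dependent genes on chromosome 13, which holds the largest histone cluster of the mouse, 39 passed this limit, as did all 9 on chromosome 3.

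No histone probe passed the genotype test: 0 of 114 in limma with Benjamini-Hochberg adjustment over all 45281 probes, with a lowest adjusted p of 0.629 for H4c12. Without adjustment, 23 of the 87 replication-dependent probes (26.4%) had p under 0.05, all with higher values in PyMT/SIRT6, where the same rule took 2.2% of all probes. In the opposite direction the count was 0 of 87, against 2.7% of all probes. A difference above 0 was found for 74 of 87 replication-dependent probes, compared with 48.9% of all probes, and their median difference was 0.10, compared with -0.001 for all probes. The count of 23 was 15 with the skeletal muscle mean as a covariate, with 75 of 87 above 0 and a median of 0.11. Without the 4 arrays high in muscle genes, which leaves 2 PyMT/SIRT6 and 5 PyMT tumours, 1 replication-dependent probe was higher and 3 were lower at that threshold, 57 of 87 had a difference above 0, and the median was 0.03. The median was 0.17 without PyMT/SIRT6 replicate 2 and 0.20 with normexp background correction. Leaving out a single array gave 12 for PyMT/SIRT6 replicate 1, 14 for PyMT/SIRT6 replicate 5 and 11 for PyMT replicate 4.

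Marker levels of other cell types were also set against genotype. The mean of the 4 measured macrophage markers, Csf1r, Adgre1, Cd14 and Ms4a7, was 9.13 to 9.26 in PyMT/SIRT6 tumours and 8.69 to 9.11 in PyMT tumours, without overlap, and 0 of the 4 passed the test. The mean of the 4 measured T and NK cell markers was 7.45 to 7.92 in PyMT/SIRT6 tumours and 7.33 to 7.57 in PyMT tumours, with 0 of the 4 past adjustment and 3 at an unadjusted p under 0.05 in the higher direction, where 2.2% of all probes stood. The part that other cell types or muscle had in the histone differences was not tested. The 4 arrays high in muscle genes had mean replication-dependent levels of 10.15, 9.98 and 10.06 in PyMT/SIRT6 replicates 1, 4 and 5, all above every PyMT tumour, and of 9.63 in PyMT replicate 5, below every other tumour.

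**Figure D1:**
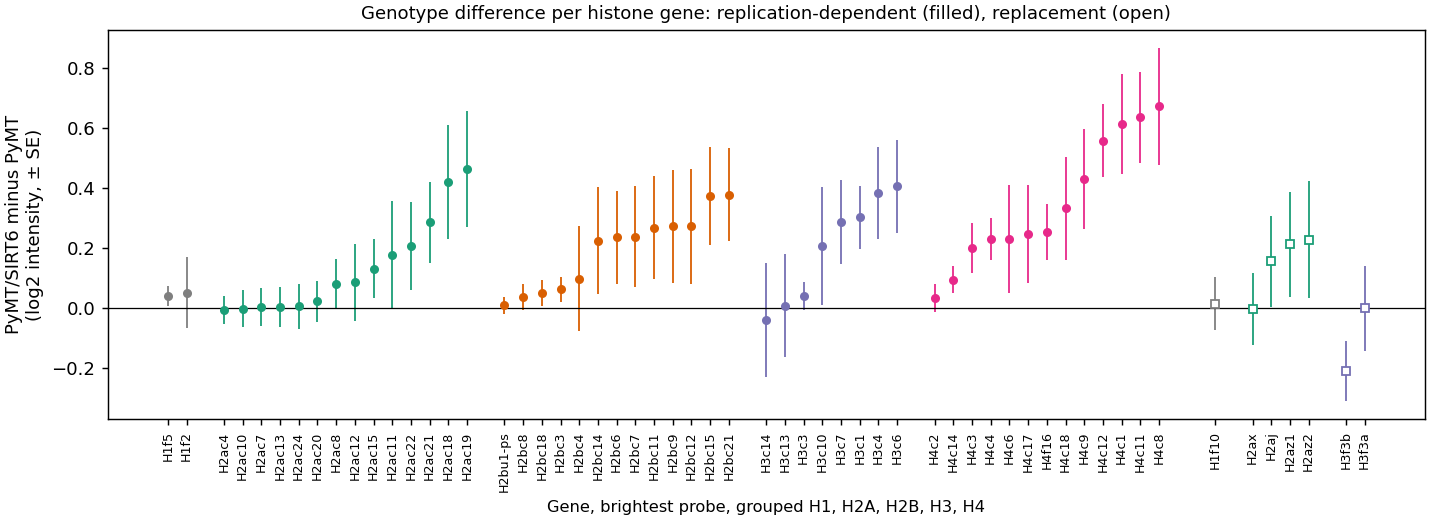
Genotype difference in log2 intensity (vertical axis, PyMT/SIRT6 minus PyMT, with the standard error as the bar) for the brightest probe of each of the 50 replication-dependent genes (filled) and 7 replacement genes (open) above the detection limit, grouped by histone type. All 13 H4 genes lie above 0, with H4c8 at 0.67, and H3f3b is the lowest at -0.21.

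H4 genes, whose product forms the tetramer with H3 at the centre of the nucleosome, showed the largest differences. All 13 H4 genes had a difference above 0 at their brightest probe, with a median of 0.25. At that probe 0 passed adjustment in limma and 9 had p under 0.05 before it. Over all 21 H4 probes, 19 were above 0 and 14 had p under 0.05 before adjustment. Of all probes on the array, 48.9% were above 0 and 2.2% were higher at that threshold. H4c11 read 10.27, 10.01, 10.06, 10.03 and 10.04 in the PyMT/SIRT6 tumours, while in the PyMT tumours its lowest, median and highest levels were 9.11, 9.45 and 9.75. The difference was 0.64 ± 0.15 (SE), an intensity ratio of 1.55, with an adjusted p of 0.939 in limma. Every PyMT/SIRT6 tumour was above every PyMT tumour, as was the case for 0.232% of all probes, and the probe ranked 38 of all probes by p.

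H4c1 was the other gene without overlap. Its levels were 11.52, 11.29, 11.36, 11.34 and 11.40 in PyMT/SIRT6 tumours, and 10.29, 10.83 and 11.08 as the lowest, median and highest in PyMT tumours. The difference of 0.61 ± 0.17 (SE) had an adjusted p of 0.979 in limma. The PyMT/SIRT6 tumours lay within a narrow band and the PyMT tumours were spread over a wider one below it. These were the only 2 of the 114 histone probes whose groups did not overlap.

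H4c8 read 10.79, 10.47, 10.77, 10.66 and 10.80 in PyMT/SIRT6 tumours, and 9.32, 10.03 and 10.50 as the lowest, median and highest in PyMT tumours. Its difference was 0.67 ± 0.19 (SE), adjusted p 0.979 in limma, and PyMT/SIRT6 replicate 2 fell below the highest PyMT tumour. H4c12 read 8.94, 8.42, 8.69, 8.90 and 8.99 in PyMT/SIRT6 tumours, and 8.01, 8.16 and 8.63 as the lowest, median and highest in PyMT tumours. Its difference was 0.56 ± 0.12 (SE), and a dimmer probe of the same gene gave 0.31. PyMT/SIRT6 replicate 2 was again the tumour that overlapped with the other genotype. H4c9 and H4c4 differed by 0.43 ± 0.17 and 0.23 ± 0.07 (SE), with overlapping groups. Without the 4 arrays high in muscle genes, H4c12, H4c9 and H4c4 differed by 0.32, 0.22 and 0.078, and H4c4 differed by 0.54 with normexp. The 3 other genes changed less over the 11 alternatives that did not leave out a single array, this one among them. There H4c11 differed by 0.57 to 0.73, H4c1 by 0.54 to 0.65 and H4c8 by 0.59 to 0.74.

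**Figure D2:**
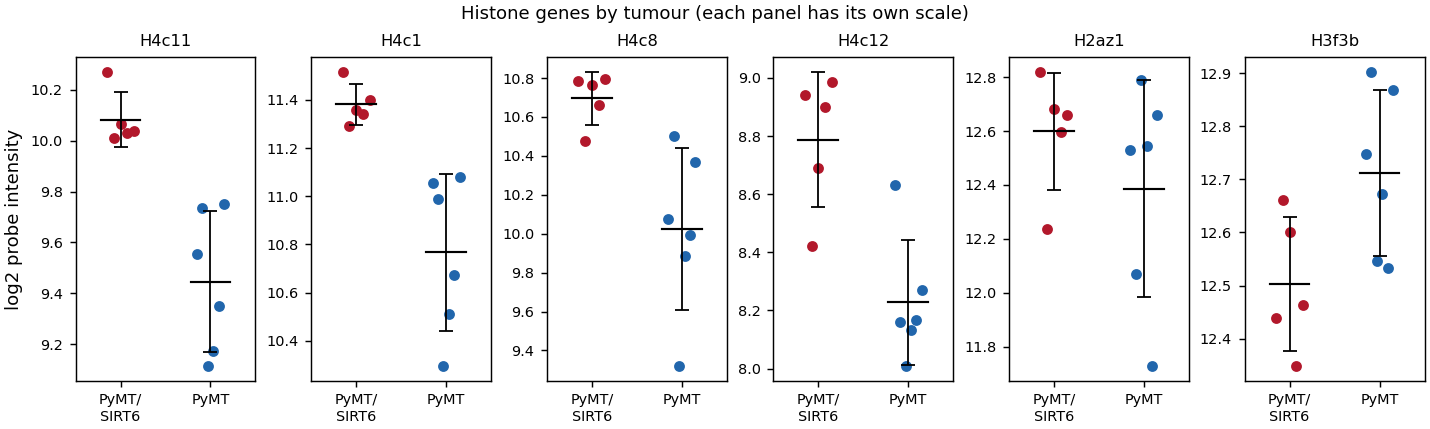
Log2 probe intensity (vertical axis, a separate scale in each panel) of 4 H4 genes and the replacement genes H2az1 and H3f3b, with a point for each tumour and the mean and SD as line and bar, PyMT/SIRT6 to the left of PyMT. H4c11 and H4c1 have no overlap between genotypes, and the other 4 genes do.

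H3 genes, whose product carries the lysines that SIRT6 is known to deacetylate, had differences above 0 at the brightest probe for 8 of 9 genes. Of these 9 genes, 3 had an unadjusted p under 0.05, where 2.2% of all probes stood, and the median was 0.21. Over all 18 H3 probes, 15 were above 0, against 48.9% of all probes, and the median was 0.04. H3c1 read 8.45, 7.90, 8.23, 8.25 and 8.15 in PyMT/SIRT6 tumours, and 7.69, 7.87 and 8.23 as the lowest, median and highest in PyMT tumours. The difference was 0.30 ± 0.10 (SE) with an adjusted p of 0.979 in limma, and the groups overlapped. H3c4 differed by 0.38, while the brighter H3c13 and H3c14 differed by 0.01 and -0.04. Without the 4 arrays high in muscle genes, H3c1 and H3c4 differed by 0.14 and 0.082, and H3c1 differed by 0.53 with normexp.

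H2B genes, whose product pairs with H2A in a dimer, had differences above 0 at the brightest probe for 14 of 14 genes, with a median of 0.23. Over all 19 H2B probes, 18 were above 0, against 48.9% of all probes. Of the 14 genes, 2 had an unadjusted p under 0.05, where 2.2% of all probes stood. Those 2, H2bc21 at 0.38 and H2bc15 at 0.37, were named after their values were seen, and a dim second probe of H2bc21 gave -0.05. The brightest H2B genes, H2bc7, H2bc6, H2bc11 and H2bc9, had differences of 0.24, 0.24, 0.27 and 0.27, each with overlapping groups. Without the 4 arrays high in muscle genes these were 0.10, 0.088, 0.11 and 0.037.

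H2A genes, whose product forms the dimer with H2B, had the brightest probes of the family, and the differences of those were near 0. At the brightest probe, 13 of 16 genes were above 0, with a median of 0.05. Over all 23 H2A probes, 20 were above 0, against 48.9% of all probes, and the median was 0.08. H2ac10, the brightest, read 14.58, 14.47, 14.65, 14.37 and 14.46 in PyMT/SIRT6 tumours, and 14.38, 14.50 and 14.65 as the lowest, median and highest in PyMT tumours, a difference of -0.00 ± 0.06 (SE). The array reads such levels near the top of its range, where differences can be compressed, and this was not tested. The brightest probes of H2ac10, H2ac7, H2ac13 and H2ac20 differed by -0.00, 0.00, 0.01 and 0.02. Dimmer probes of these genes differed by 0.07, 0.06, 0.13 and 0.38. H2ac19 and H2ac18, which lie in the chromosome 3 cluster, differed by 0.46 ± 0.19 and 0.42 ± 0.19 (SE), each with an unadjusted p under 0.05 and an adjusted p of 0.979 in limma. In both, PyMT replicate 3 was the lowest tumour, at 10.85 and 10.56.

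Linker histone genes, whose product binds the DNA between nucleosomes, had differences above 0 at the brightest probe for 2 of 5 genes, against 48.9% of all probes. The median of the 5 was -0.03. H1f2, the only bright member, differed by 0.05 ± 0.12 (SE), and its second probe by -0.05. Its difference was 0.28 without the 4 arrays high in muscle genes and -0.041 without PyMT/SIRT6 replicate 2. The 13 germline genes, which are used in testis and oocyte chromatin, had a median difference of 0.00 at the brightest probe. Of these, 7 were above 0, against 48.9% of all probes. At an unadjusted p under 0.05 there were 0, where 2.2% of all probes were higher and 2.7% lower.

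Replacement genes had differences above 0 at the brightest probe for 5 of 9 genes, with a median of 0.00. Over all 13 replacement probes, 8 were above 0, against 48.9% of all probes, and the median was 0.02. At an unadjusted p under 0.05 there were 0 in either direction. H2az1, which encodes the H2A.Z variant found at promoters, read 12.82, 12.24, 12.68, 12.60 and 12.66 in PyMT/SIRT6 tumours, and 11.73, 12.54 and 12.79 as the lowest, median and highest in PyMT tumours, a difference of 0.21 ± 0.18 (SE). H2az2, the other H2A.Z gene, differed by 0.23 ± 0.19 (SE). Both overlapped between genotypes, and without the 4 arrays high in muscle genes the differences were -0.06 and -0.17. H2az1 differed by 0.081 without PyMT replicate 5, and H2az2 by 0.37 without PyMT/SIRT6 replicate 2 and 0.13 without PyMT replicate 2.

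H3f3b, which encodes histone H3.3, had the most negative difference of any histone gene. It read 12.44, 12.66, 12.60, 12.35 and 12.46 in PyMT/SIRT6 tumours, and 12.53, 12.71 and 12.90 as the lowest, median and highest in PyMT tumours, a difference of -0.21 ± 0.10 (SE) with an adjusted p of 0.979 in limma, and -0.12 without the 4 arrays high in muscle genes. H3f3a, which encodes the same protein, differed by 0.00 ± 0.14 (SE). H2ax, whose product is phosphorylated at DNA breaks, differed by -0.00 ± 0.12 (SE), and H2aj by 0.16 ± 0.15 (SE), or -0.027 without the 4 arrays high in muscle genes. In all of these the genotypes overlapped.

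Class means summarise each tumour by the brightest probe of each gene above the detection limit, and are described without a test because the genes were chosen with results known. The replication-dependent mean was 10.15, 9.76, 10.03, 9.98 and 10.06 in PyMT/SIRT6 tumours, and 9.63, 9.74 and 9.97 as the lowest, median and highest in PyMT tumours. The group means were 9.996 ± 0.146 in PyMT/SIRT6 and 9.782 ± 0.143 in PyMT (SD, n = 5 and 6), a difference of 0.21. PyMT/SIRT6 replicate 2 lay among the PyMT tumours and the other 4 above all of them. By type, the differences of the means were 0.35 for H4, 0.20 for H3, 0.19 for H2B, 0.13 for H2A and 0.05 for H1.

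The replacement mean was 10.55 ± 0.09 in PyMT/SIRT6 and 10.49 ± 0.15 in PyMT (SD), a difference of 0.06. Subtracting it from the replication-dependent mean within each tumour gave -0.56 ± 0.07 in PyMT/SIRT6 and -0.71 ± 0.17 in PyMT (SD), a difference of 0.16, with overlapping values. Without the 4 arrays high in muscle genes, the replication-dependent difference was 0.08, the replacement difference -0.07 and the difference between the classes 0.15. With the muscle mean as a covariate over all 11 tumours they were 0.21, 0.07 and 0.14. The classes moved together to some degree, with r = 0.55 and rho = 0.46 over 11 tumours, and r = 0.23 without PyMT replicates 5 and 2.

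**Figure D3:**
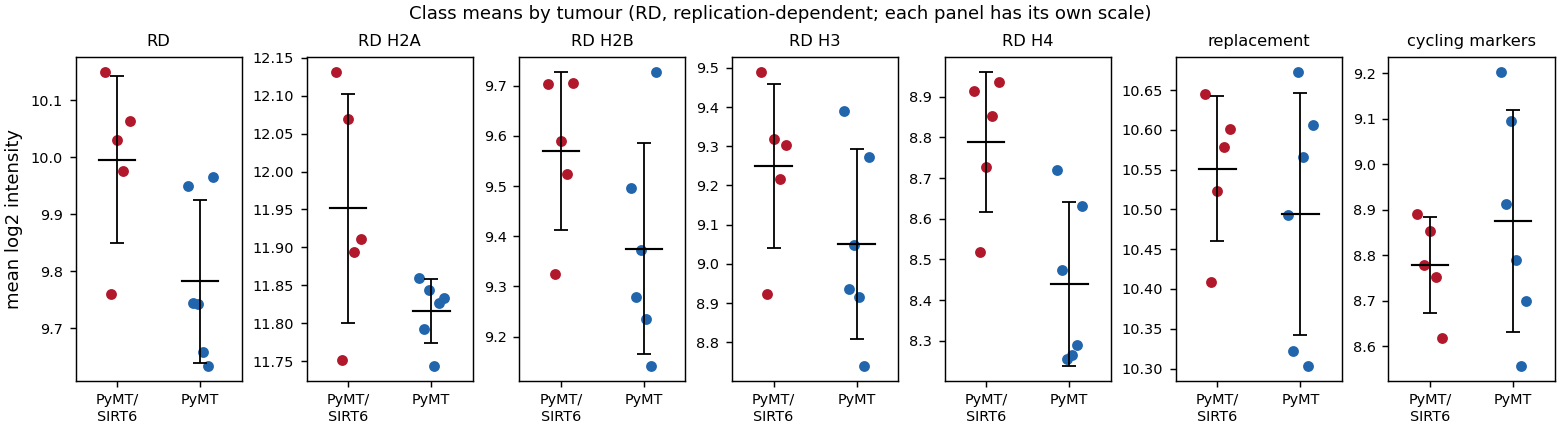
Mean log2 intensity of each class by tumour (vertical axis, a separate scale in each panel) with the mean and SD as line and bar, PyMT/SIRT6 to the left of PyMT, where RD stands for replication-dependent. The H4 panel shows the widest gap, 0.35, and the cycling marker means of the genotypes overlap.

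The comparison with proliferation could not be made as planned. Mki67 has no named probe, and the Pcna probe read between 7.12 and 7.38 in every tumour, below the limit of 7.29 on average. The mean of 14 measured cycling markers, among them Top2a, Rrm2, Cdk1, Tyms and the MCM helicase genes Mcm2 to Mcm7, was used instead and was chosen after the data were seen. It was 8.78 ± 0.11 in PyMT/SIRT6 and 8.88 ± 0.24 in PyMT (SD). Of the 14 markers, 2 were higher and 12 lower, with a median difference of -0.11, where 48.9% of all probes were higher. The genotype test called 0 of the 14, against 0.00663% of all probes. At an unadjusted p under 0.05 there were 0 in either direction, where 2.2% of all probes were higher and 2.7% lower.

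Replication-dependent histone levels and the cycling markers were weakly related over the tumours as a whole: r was 0.07 and rho -0.02 over 11 tumours, and r was 0.21 without PyMT replicates 1 and 3. It was -0.19 without PyMT replicate 5, 0.22 without PyMT/SIRT6 replicate 5 and 0.32 after the genotype means were removed. Within the 6 PyMT tumours r was 0.40. By type, r was 0.33 for H3, 0.09 for H2A, 0.01 for H2B and -0.05 for H4. The replacement mean gave r = 0.21 and rho = 0.13, with r = -0.080 without PyMT replicate 5. PyMT replicate 1 had the highest cycling mean, 9.20, and PyMT/SIRT6 replicate 5 had a higher replication-dependent mean at a cycling mean of 8.62. Relative to the cycling markers, the replication-dependent mean was 1.22 ± 0.17 higher in PyMT/SIRT6 and 0.91 ± 0.23 higher in PyMT (SD). The groups overlapped, with 0.98 to 1.44 in PyMT/SIRT6 and 0.65 to 1.27 in PyMT.

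**Figure D4:**
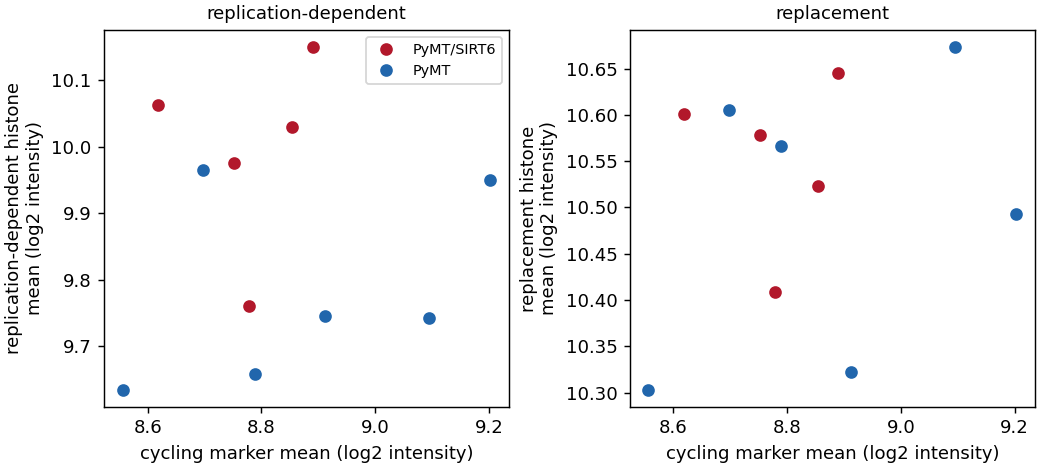
Replication-dependent (left) and replacement (right) histone mean of each tumour against the mean of 14 cycling markers, both in log2 intensity, with PyMT/SIRT6 in red and PyMT in blue. No common line joins the 11 tumours, with r of 0.07 and 0.21.

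Fitted with a genotype term, the slope on the cycling mean passed limma's test for 0 of 57 replication-dependent and 0 of 9 replacement genes, and for 0 of 45247 probes in all. At an unadjusted p under 0.05, 10 of the 87 replication-dependent probes (11.5%) had a positive slope, against 5.4% of all probes, and 2 had a negative slope, against 4.72%. The count of 10 of 87 stood against 2444 of 45247 probes in all. With the muscle mean as a covariate it was 22, against 1415 of all probes. With the order of deposit as a block it was 20, against 2664, and without PyMT replicate 1 it was 5, against 2110. Without the lower 75% of probes it was 2 of 51, against 956 of 11301 probes in all. Slopes were above 0 for 74.7% of the 87 replication-dependent probes and 52.4% of all probes. The positive slopes included H2ac10, at 0.47 ± 0.13 log2 units per unit of the cycling mean, H2ac8 at 0.60 ± 0.18 and H3c1 at 0.71 ± 0.23 (SE), and among negative slopes was H2ac19 at -1.15 ± 0.47 (SE). H4c11 had a slope of 0.01 ± 0.43 (SE). On Pcna, 0 replication-dependent probes passed adjustment, 6 of 87 had a positive slope at an unadjusted p under 0.05, against 3.64% of all probes, and 3 had a negative slope, against 4.07%. Slopes on Pcna were above 0 for 56 of the 87 probes (64.4%) and 50.8% of all probes, but the direction turned with a single array. Without PyMT/SIRT6 replicate 2, 26 of 87 were above 0, with 0 positive and 7 negative at that threshold. Without the genotype term 39 of 87 were above 0, with 0 positive and 5 negative. The positive count was 11 without PyMT/SIRT6 replicate 4 and 11 without the 4 arrays high in muscle genes.

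How closely genes moved together differed between types, after the genotype means were removed. The median pairwise r over the 11 tumours was 0.74 within H3, 0.64 within H4, 0.61 within H2B and 0.47 within H2A. It was 0.66 between H2B and H3, 0.18 between H2A and H2B and 0.18 between H2A and H4. Probes of the same type share sequence, so these values may partly count the same signal. Among 26 pairs of probes of the same gene in 22 genes, the median r was 0.74 and 20 pairs had differences of the same sign. The least alike pair belonged to H2ac20, with r of -0.34 and differences of 0.02 and 0.38.

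**Figure D5:**
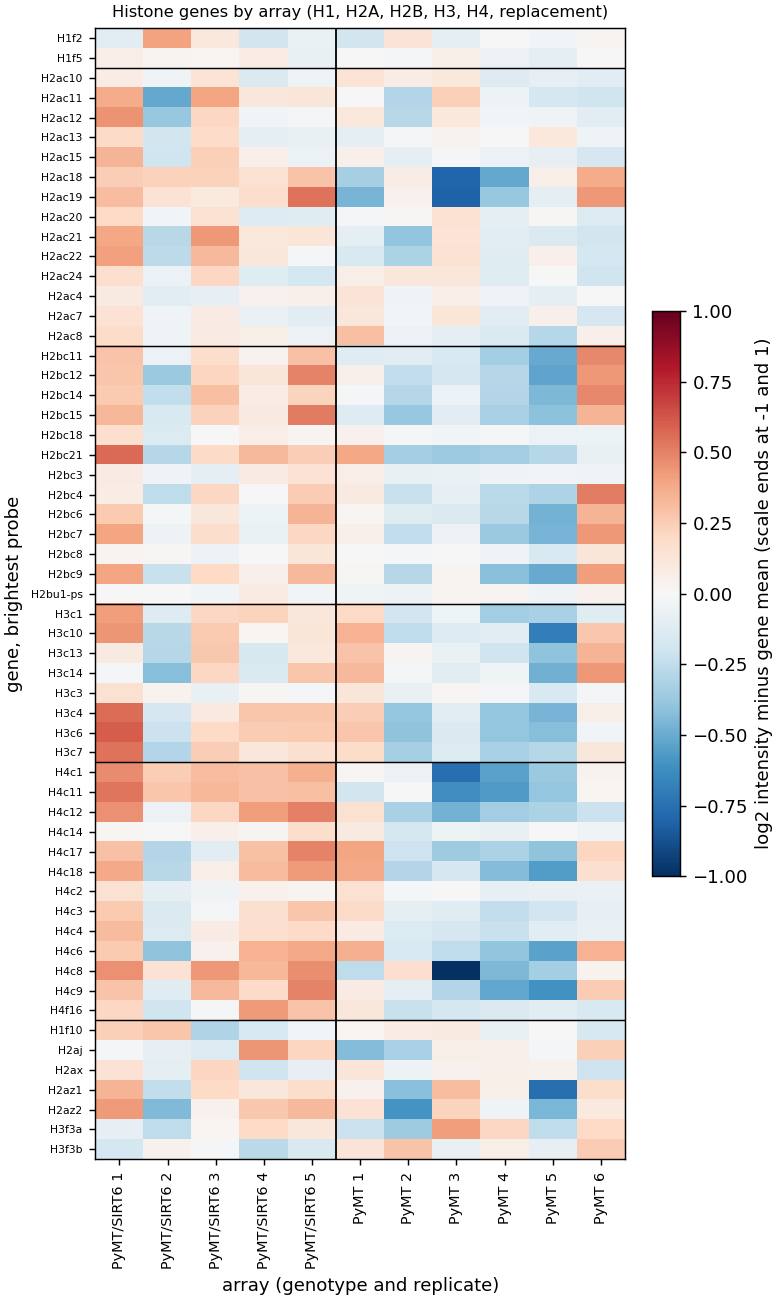
Log2 intensity of each gene minus its mean over the 11 tumours (colour, with the scale ending at -1 and 1), for genes above the detection limit in rows by type and tumours in columns, PyMT/SIRT6 to the left. H4 rows are mostly red to the left, less so in PyMT/SIRT6 replicate 2. PyMT replicate 5 is blue across many H2B, H3 and H4 rows. The H4 means of PyMT replicates 3 and 4 were lower still, 8.26 and 8.27 against 8.29.

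No gene of the lists that supply and handle histones passed the genotype test. Of the 6 measured genes for histone mRNA processing, 1 was higher and 5 were lower, with Upf1, an RNA helicase that takes part in histone mRNA decay, at -0.17 ± 0.09 (SE), and the Slbp probe below the detection limit. Of the 10 chaperones coupled to replication, 3 were higher and 7 lower, with Nasp, an H3 and H4 chaperone, at -0.22 ± 0.13 (SE). Of the 9 measured chaperones for replacement variants, 1 was higher and 8 were lower, with Vps72, an H2A.Z chaperone, at -0.14 ± 0.07 (SE). The test called 0 in each list, against 0.00663% of all probes. At an unadjusted p under 0.05 each list had 0 in either direction, where 2.2% of all probes were higher and 2.7% lower. Of all probes, 48.9% had a difference above 0.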

How the data were processed

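Whole-tumour RNA from 5 PyMT/SIRT6 and 6 PyMT tumours was hybridised to single-colour Illumina mouse arrays, per the labels. The authors deposited linear probe intensity values that already share their distribution across arrays. Their background correction and normalization were "not given in the sources used here". Intensities were taken to log2 without further scaling and tested for all 45281 probes with limma 3.58.1 in R 4.3.3 (lmFit and eBayes with an intensity trend, Benjamini-Hochberg adjustment, threshold 0.05), as PyMT/SIRT6 minus PyMT, without a filter, and the fit was tested on simulated data. The detection limit for class means is the upper 50% of probes by mean level, 7.29 in log2 or an intensity of 157. Probe names came from the platform annotation, and all 114 histone probes matched RefSeq symbols with 0 changed. The number of arrays limits the precision, and intensities carry no counting error that could be stated. The histone family, its classes and the gene lists were chosen with earlier results of these data known.

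Genes named in the text are H4c11, the 4 brightest of each type in the replication-dependent and replacement classes, up to 3 further members a direction with the smallest unadjusted p for genotype and for the cycling slope, up to 4 genes of each supply list by p, and the 8 genes most like the class mean. The rule asked for a slope on Mki67, which has no named probe, so the mean of 14 cycling markers took its place. Genes named outside the rule are H2ac7, the H2B genes said to be so, the class examples and the cell type markers. Alternatives included filters, normexp background correction, array weights, a muscle covariate and leaving out each array. Summaries and figures used numpy 2.4.6, pandas 2.3.3, scipy 1.17.1 and matplotlib 3.10.9.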

Additional observations from a re-analysis of the deposited data

Results flagged for a closer look

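Within-genotype spread was examined for 94 groups of arrays, and in 2 of them a single array lay far from the rest. Chance gives such an array in about 5% of groups. H4c11 read 10.27 in PyMT/SIRT6 replicate 1, while the other 4 PyMT/SIRT6 tumours lay between 10.01 and 10.06. H2ac1, a germline H2A gene, read 7.29 in PyMT replicate 1, while the other 5 PyMT tumours lay between 7.34 and 7.36, all close to the detection limit.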

How the results depend on the processing

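The count of histone probes past the adjusted threshold was 0 under every alternative run, and neither H4c11 nor any of the 39 other named histone genes passed (839 values for those 39). The count over all probes was 3 in the reported fit, 6 without the lower 50% and without the lower 75% of probes, 9 with normexp, 10 with robust estimation, 7 with array weights, 0 without the 4 arrays high in muscle genes, and 0 to 4 when each array was left out. Replication-dependent probes at an unadjusted p under 0.05, a count added after seeing the data, numbered 23, 15 with the muscle covariate, 1 without the muscle arrays (with 3 lower), and 11 to 33 when each array was left out. Slope calls over all probes on Pcna numbered 1 without the muscle arrays. On the cycling mean, added after seeing the data, they numbered 5 with only the brightest probe of each gene, 5 without the intensity trend, 6 with array weights, 2 without the genotype term and 0 to 7 when each array was left out (7 without PyMT replicate 2, 6 without PyMT replicate 6). The replacement mean correlated with the dim Pcna probe at r = 0.28 and rho = 0.15 over 11 tumours, and at r = 0.59 over the 7 left without the muscle arrays. The replication-dependent mean gave r = -0.11 and rho = -0.29 with Pcna over 11 tumours, and r = 0.11 over those 7. Without the muscle arrays the replication-dependent class mean difference was 0.083, against 0.213 in the reported fit. The replacement one was -0.066, against 0.057. These moves were only a little smaller than the pooled SD between tumours, 0.144 for the replication-dependent and 0.129 for the replacement mean. That SD describes single tumours and not the error of a difference between group means. Under the other alternatives the class mean differences also moved by less than it. The sign turned in 70 values of 17 named genes. Without the muscle arrays the turned differences were 0.035 for H2ac10, -0.083 for H3c13, -0.033 for H3c10, -0.0014 for H1f10, -0.059 for H2az1, -0.17 for H2az2, 0.070 for H2ax, -0.027 for H2aj, -0.17 for H3f3a, -0.028 for H3c3 and -0.059 for H4c2. With the muscle covariate they were 0.032 for H2ac10, -0.0017 for H2ac13, 0.0033 for H3c14 and 0.022 for H2ax. With the order of deposit as a block they were -0.016 for H2ac24, -0.0032 for H3c13 and 0.0040 for H2bfm, with array weights 0.013 for H2ac10 and 0.0029 for H2bfm, and with normexp -0.016 for H1f10. The cause was not tested. Leaving out each array gave H1f2 -0.041 to 0.10, H2ac10 -0.036 to 0.034, H2ac24 -0.044 to 0.051, H2ac20 -0.023 to 0.059, H2ac13 -0.042 to 0.052, H3c13 -0.071 to 0.080, H3c14 -0.14 to 0.062, H1f10 -0.052 to 0.094, H2ax -0.056 to 0.046, H2bfm -0.014 to 0.013 and H3f3a -0.071 to 0.084. Fits on Mki67 were not run because it has no named probe. No paired analysis was possible because the replicate numbers only follow the order of deposit. Dim probes, near the floor of the array, and the brightest H2A probes limit which differences could be seen, and whether probes share transcripts of near-identical genes was not tested.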

Other observations

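Among 11961 genes outside the histone family whose brightest probe was in the upper 50%, the 8 most like the replication-dependent mean over the 11 tumours, by Pearson correlation, were Asic2 (r = 0.94), Surf1 (0.93), Cmtm4 (0.92), Emc6 (0.90), Cxcl16 (0.90), Mvb12b (0.90), Cox7a2 (0.89) and Pradc1 (0.88). These are the highest of many correlations over few tumours that share 2 genotypes, and Asic2 was dim, with a mean of 7.30. Several of the cycling markers were less alike, with r of 0.58 for Tyms, 0.32 for Cdk1, 0.07 for Rrm2, -0.04 for Mcm5, -0.22 for Top2a and -0.34 for Mcm4. The replacement mean ran against the luminal marker mean, with r = -0.77 and rho = -0.86 over 11 tumours, r = -0.58 without PyMT replicates 3 and 2, and r = -0.83 within the 6 PyMT tumours. The replication-dependent mean gave r = -0.24 and rho = -0.39 with the same markers.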
